A study of Mus musculus with 11 samples.

Results

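The 4 fibroblast growth factor (FGF) receptor genes Fgfr1, Fgfr2, Fgfr3 and Fgfr4 and the 6 ligand genes Fgf1, Fgf2, Fgf3, Fgf4, Fgf7 and Fgf10 were followed through 3 stages of a mouse mammary tumour. They were taken by Entrez Gene identifier, and all 10 had a row among the 23835 named genes of the table. The rule that chose them uses no measured value, but they were proposed with earlier results of these data known. Fgfr1 and Fgf2 were the 2 members that read above the background range on all 11 arrays. Of the 30 comparisons between stages 1 was called, at an adjusted p under 0.05: Fgf2 was 2.2-fold lower in recurrent tumour cells than in residual cells, a comparison in which 5.78% of all genes were called.

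FGFs are secreted proteins that bind a receptor tyrosine kinase together with heparan sulphate on the cell surface. The activated receptor phosphorylates docking proteins and switches on the RAS-MAPK pathway, which in turn induces its own inhibitors. In the mammary gland Fgf7 and Fgf10 come from the stroma and act on the epithelial IIIb splice form of Fgfr2, and Fgf3, Fgf4 and Fgf8 are genes that mouse mammary tumour virus is known to activate by inserting nearby, also in tumours that carry a Wnt1 transgene.

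The genotype of the cells is MMTV-rtTA;TetO-Wnt1, in which the mammary promoter MMTV drives the doxycycline-dependent activator of Wnt1, a secreted Wnt ligand. All groups were H2B-eGFP-labelled cells placed in the mammary glands of female nu/nu mice, which lack a thymus and so mature T cells, and isolated again from the lesion. There were 4 arrays of primary tumour cells from mice kept on doxycycline and labelled untreated, 3 arrays of residual lesion cells taken 28 days after its withdrawal, and 4 arrays of recurrent tumour cells, also after Wnt1 was switched off, whose time is not given in the labels. The series title calls the cells Wnt1-Prim1; the sources used here do not give how many clones that name stands for or whether the arrays of a group are separate mice, so p-values measure the spread between arrays, which may be technical.

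Each array gave 1 log2 signal per gene, and precision is limited by there being 3 or 4 arrays a group. Median signals were 4.29 to 4.41 on all arrays. As a background range, the 95th percentiles of 1066 olfactory receptor genes were 3.96 to 4.02 on primary, 4.34 to 4.38 on residual and 4.03 to 4.09 on recurrent arrays. A member below them is called dim here. Dim describes the signal and does not show that the gene is silent. The range was highest on residual arrays, so the same signal can be dim there and above background at another stage. The level of 1 gene was not set against that of another, since probes differ in brightness. The keratins Krt8 and Krt18 of simple epithelium read above background on all 11 arrays, whereas the epithelial surface marker Epcam read above it on 1, residual 2, at 6.29. Of 12 fibroblast markers 8 to 10 were above background on primary, 11 to 12 on residual and 10 to 11 on recurrent arrays. Of these 12, 10 were called higher in residual than in primary cells, where 4.81% of all genes were. In recurrent against primary cells 7 of 12 were called higher, where 0.818% of all genes were. In such RNA pools, fewer cells of a type and less RNA per cell cannot be told apart.

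Fgfr1, the receptor that FGF2 and many other FGFs activate, was bright at every stage. It read 9.33, 8.89, 9.41 and 9.28 on the primary arrays, 9.47, 9.14 and 9.39 on the residual arrays, and 9.62, 9.49, 9.40 and 9.63 on the recurrent arrays (log2 signal). The groups overlapped, and primary 2 held the lowest value. Recurrent cells averaged 9.54 ± 0.11 and primary cells 9.23 ± 0.23 (SD, n = 4 each), a log2 fold change of 0.31 with a 95% interval of 0.00 to 0.61 (limma, adjusted p = 0.36). Residual cells averaged 9.33 ± 0.17 (n = 3), which was 0.11 above primary cells with an interval of -0.22 to 0.43 (adjusted p = 0.724). Recurrent cells were 0.20 above residual cells, with an interval of -0.13 to 0.53 (adjusted p = 0.517). The order was recurrent, residual, primary, and no neighbouring pair of it was called. The intervals leave room for a rise of up to 1.53-fold in recurrent against primary cells and up to 1.35-fold in residual against primary cells.

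**Figure D1:**
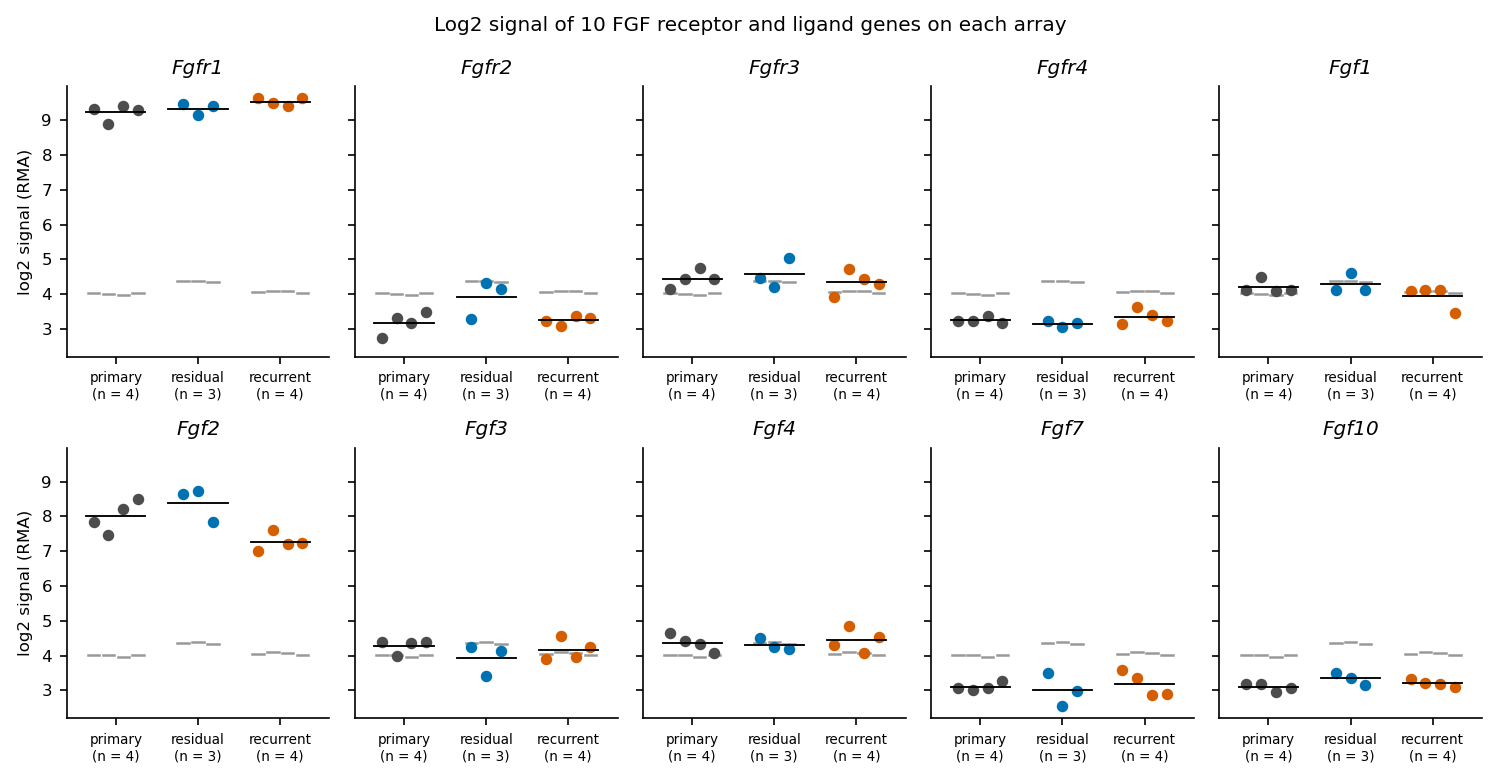
Log2 signal of each of the 10 genes (vertical axis) on the arrays of the 3 stages (horizontal axis, replicates 1 upwards from left to right). Points are arrays, black lines group means, and grey ticks mark the olfactory receptor background (95th percentile) of each array; Fgfr1 and Fgf2 lie above the ticks on all 11 arrays, and Fgfr2, Fgfr4, Fgf7 and Fgf10 lie below them on all 11.

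Fgfr2, whose IIIb form is the epithelial receptor of FGF7 and FGF10, was dim on all 11 arrays. It read 2.74, 3.33, 3.16 and 3.50 on primary, 3.29, 4.30 and 4.15 on residual, and 3.22, 3.07, 3.36 and 3.33 on recurrent arrays. Residual 2 and 3 were the highest arrays, and residual 1 lay among the others. Residual cells averaged 3.91 ± 0.55 (n = 3) and primary cells 3.18 ± 0.32 (n = 4), a difference of 0.73 (95% interval 0.20 to 1.26) that was not called (adjusted p = 0.0736). Recurrent cells averaged 3.24 ± 0.13 (n = 4), 0.67 below residual cells (a log2 fold change of -0.67, interval -1.20 to -0.14, adjusted p = 0.144). Without residual 1 the gene was called higher in residual than in primary cells (1.04, adjusted p = 0.00873) and lower in recurrent than in residual cells (-0.98, adjusted p = 0.0223). Without residual 2 the difference of residual from primary cells was 0.54 (adjusted p = 0.245). Background was higher on residual arrays (4.34 to 4.38) than on primary (3.96 to 4.02) and recurrent ones (4.03 to 4.09). The differences given for this dim gene do not remove that shift, and its part was not tested.

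Several markers of luminal epithelium were high on residual 2. Fgfr2 was almost as high on residual 3, where fewer luminal markers were highest and several were lowest. On residual 2 Epcam read 6.29, against 3.47 and 4.10 on residual 1 and 3, and the splicing factor Esrp1, which keeps the IIIb exon of Fgfr2 in epithelia, read 5.58, against 3.86 and 3.45. Among the residual arrays 9 of 15 luminal markers were highest and 3 lowest on residual 2, the 3 being Areg, the estrogen receptor Esr1 and Pgr. Residual 3 held the highest value of 5 of the 15, Gata3, Foxa1, Esr1, Pgr and Cldn4, and the lowest value of 6. High readings on residual 2 were not limited to luminal markers. Of 9 measured macrophage and monocyte markers Csf1r, Cd68, Mrc1, Fcgr1, Itgam, Cd163 and Ptprc were also highest there among the residual arrays. Adgre1 and Cd14 were lowest there. Of the 15 luminal markers 7 to 12 read above background on residual, and 7 to 8 on primary and on recurrent arrays, and Foxa1, Prlr and Pgr on none. Their summed signal was 12.25 to 12.42 on primary, 10.51 to 10.995 on residual and 11.23 to 11.91 on recurrent arrays (log2 of the sum), carried mostly by Krt18 and Areg, and 1 marker was called higher and 4 lower in residual than in primary cells. The part of these cells in the Fgfr2 values was not tested. A single signal per gene does not tell the IIIb from the IIIc form of a receptor.

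Fgfr3 and Fgfr4 gave no call. Fgfr3, a receptor best known for restraining bone growth, read 3.92 to 5.03 over all arrays and was above background on 9 of 11. Primary cells averaged 4.43 ± 0.25 (n = 4), residual cells 4.57 ± 0.42 (n = 3) and recurrent cells 4.34 ± 0.33 (n = 4), and its 3 adjusted p values were 0.646 or more. Fgfr4, which pairs with the co-receptor Klb to bind endocrine FGFs, was dim on every array at 3.05 to 3.63. Its largest difference was 0.20, of recurrent from residual cells (95% interval -0.10 to 0.50, adjusted p = 0.487).

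Fgf2, the heparin-binding ligand that leaves cells without a signal peptide, gave the one call. It read 7.01, 7.61, 7.22 and 7.22 on the recurrent arrays, against 8.65, 8.72 and 7.83 on the residual arrays. On the primary arrays it read 7.83, 7.48, 8.21 and 8.51. Every recurrent array lay below every residual array, while primary 2 lay inside the recurrent range and the residual and primary ranges overlapped. Recurrent cells averaged 7.27 ± 0.25 (n = 4) and residual cells 8.40 ± 0.49 (n = 3), a log2 fold change of -1.14 (SE 0.27, 95% interval -1.73 to -0.54, limma adjusted p = 0.0328). Of all genes tested 2.19% were called lower in this comparison, and 3% of those above background on at least 3 arrays. An exact permutation test over the 7 arrays gave p = 0.0571 (two-sided), the smallest value that 4 against 3 arrays allow.

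The other differences of Fgf2 were not called. Recurrent cells were 0.74 lower than primary cells, which averaged 8.01 ± 0.45 (log2 fold change -0.74, 95% interval -1.30 to -0.19, adjusted p = 0.194, exact permutation p = 0.0571). Residual cells were 0.39 above primary cells (interval -0.21 to 0.99, adjusted p = 0.413). The call of recurrent against residual cells was kept under 12 of 21 other limma settings and lost under 9, with adjusted p from 0.015 to 0.118 and a log2 fold change from -1.42 to -0.98. Among these, it was lost without recurrent 1 (adjusted p = 0.0721), recurrent 3 (0.0707), recurrent 4 (0.0665), residual 1 (0.114) or residual 2 (0.118). It was also lost with the replicate number as a block (0.0747), with array weights, with ordinary least squares and with only the arrays compared. The settings that kept it include leaving out each primary array, which is not among the arrays compared. In this comparison 1 of 12 fibroblast markers was called lower and none higher, and their summed signal was 13.31 to 13.87 on recurrent and 13.39 to 14.12 on residual arrays; their part was not tested.

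A pair of measured genes overlap Fgf2 on the mouse assembly GRCm38.p6 and are read from the opposite strand: Nudt6, a hydrolase gene known as the FGF2 antisense gene, and Fgf2os, a long non-coding RNA. Nudt6 read 6.98, 6.97, 6.52 and 6.58 on recurrent arrays, against 8.02, 7.85 and 7.29 on residual arrays. Its log2 fold change was -0.96 (SE 0.20, adjusted p = 0.0164), with no overlap between the groups. Fgf2os read 3.56, 2.97, 3.34 and 3.87 on recurrent arrays, against 4.92, 4.55 and 4.68 on residual arrays (limma adjusted p = 0.00252). All its recurrent values lay below background, so that only a bound can be given. With the background level of the recurrent arrays in their place, the residual mean was at least 1.57-fold higher. The measured means were 3.44 in recurrent and 4.72 in residual cells. The bound has no interval. Background was also higher on residual arrays (4.34 to 4.38) than on recurrent ones (4.03 to 4.09), and the bound does not remove this shift. Fgf2os was also higher in residual than in primary cells, at 4.72 ± 0.19 (n = 3) and 3.80 ± 0.08 (n = 4) (limma adjusted p = 0.00914). All primary values lay below background too, and the bound was at least 1.64-fold, with the same limits. For Nudt6 that difference was 0.58 and was not called (adjusted p = 0.083). The sources used here do not give the strand or exons that the probes of the 3 genes match, so shared signal between them was not tested.

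**Figure D2:**
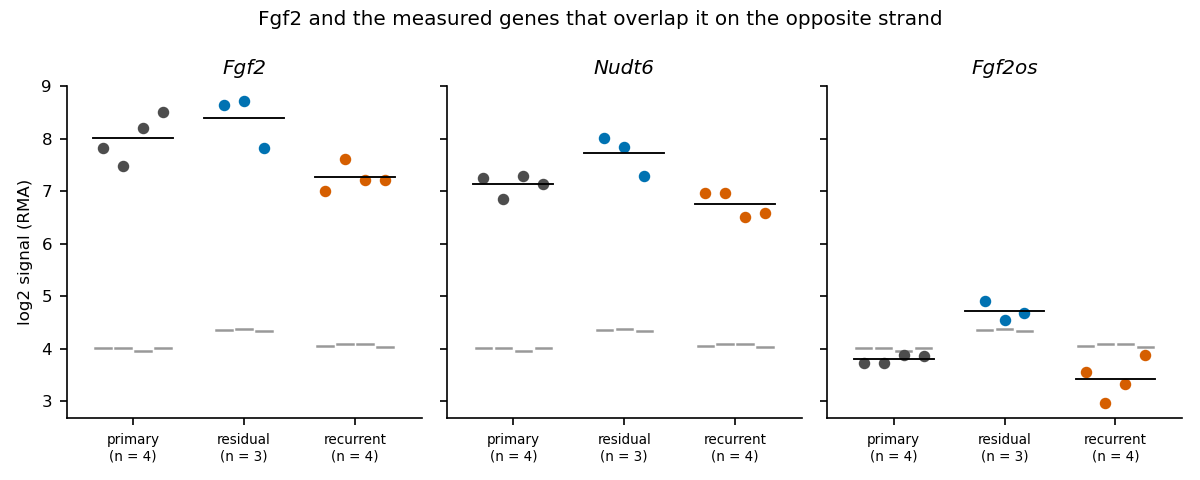
Log2 signal (vertical axis) of Fgf2 and of the overlapping genes Nudt6 and Fgf2os on the arrays of the 3 stages. Points are arrays, black lines group means, and grey ticks the 95th percentile of olfactory receptor genes; for all 3 genes the 4 recurrent arrays lie below the 3 residual arrays, and Fgf2os lies above the ticks on the residual arrays only.

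Promoter windows of 300 bases, from 250 before to 50 after the start, were taken from RefSeq (build GRCm38.p6) and were found for 8 of the 10 members. The windows shown belong to ligands of different signal and composition: Fgf2 (chr3:37348403-37348702, plus strand), the bright ligand that gave the call; Fgf4 (chr7:144861136-144861435, plus strand), a ligand near background with a window richer in G and C; and Fgf7 (chr2:126034408-126034707, plus strand), a dim ligand with a window poor in them. Capitals mark GC boxes, the letters GGGCGG on either strand.
Fgf2: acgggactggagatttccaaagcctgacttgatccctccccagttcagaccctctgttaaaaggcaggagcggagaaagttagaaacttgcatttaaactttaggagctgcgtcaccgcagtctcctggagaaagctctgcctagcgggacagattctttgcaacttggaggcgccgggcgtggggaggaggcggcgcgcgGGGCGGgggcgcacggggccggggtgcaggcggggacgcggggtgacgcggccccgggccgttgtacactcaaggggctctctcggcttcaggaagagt
Fgf4: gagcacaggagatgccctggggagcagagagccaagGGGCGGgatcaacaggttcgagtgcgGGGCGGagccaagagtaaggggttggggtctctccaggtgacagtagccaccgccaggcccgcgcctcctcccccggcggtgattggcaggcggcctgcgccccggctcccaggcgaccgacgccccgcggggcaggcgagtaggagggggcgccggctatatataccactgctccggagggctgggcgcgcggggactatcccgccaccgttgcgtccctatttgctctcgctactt
Fgf7: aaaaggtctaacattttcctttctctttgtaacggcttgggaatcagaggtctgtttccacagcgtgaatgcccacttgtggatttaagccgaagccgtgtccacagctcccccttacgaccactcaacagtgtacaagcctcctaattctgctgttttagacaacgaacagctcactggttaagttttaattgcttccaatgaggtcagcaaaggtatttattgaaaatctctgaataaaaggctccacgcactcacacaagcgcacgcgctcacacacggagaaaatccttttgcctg

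The Fgf2 window held 1 GC box, the Fgf4 window 2 and the Fgf7 window none, and G and C made up 62.7%, 69.7% and 45.7% of their bases. Of the 8 members with a window 5 held a GC box: Fgfr3, Fgfr4, Fgf2, Fgf4 and Fgf10. Of all 32851 RefSeq windows 35.7% held one. No window was found for Fgfr1 or Fgf1, so Fgf2 was the only bright member with a window. The dim members Fgfr4 and Fgf10 held the motif, and the dim Fgfr2 and Fgf7 did not. None of the members' 9 windows (Fgfr3 has 2) held TATAAA or the AP-1 letters TGANTCA on either strand, which 13.6% and 7.81% of all windows hold. Other TATA-like letters, such as the TATATATA in the Fgf4 window shown, were not searched for. The TCF letters CTTTGA were found in 1 window, that of Fgf3, and in 16% of all windows. Among the members the ETS letters CCGGAA were found in the Fgfr4 window only, and in 14.9% of all windows. These are matches of letters within one window, a description and not sites of binding.

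Fgf1, the ligand that binds all receptors of the family, read near background. Its values were 4.12, 4.49, 4.10 and 4.12 on primary, 4.12, 4.59 and 4.12 on residual and 4.10, 4.12, 4.12 and 3.45 on recurrent arrays. On 6 of the 11 arrays the deposited value was identical, so the gene was hardly resolved between them. Recurrent cells averaged 3.95 ± 0.33 (n = 4) and residual cells 4.28 ± 0.27 (n = 3), the widest gap (log2 fold change -0.33, adjusted p = 0.406).

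Fgf3 and Fgf4, the neighbouring virus-activated ligands on chromosome 7, also stayed near background. Fgf3 read 3.41 to 4.57 and was above background on 5 of 11 arrays. The same deposited value, 4.23, was below background on residual 1 and above it on recurrent 4. Primary cells averaged 4.28 ± 0.19 (n = 4), residual cells 3.92 ± 0.45 (n = 3) and recurrent cells 4.17 ± 0.30 (n = 4). The residual value was 0.36 below the primary one (log2 fold change -0.36, 95% interval -0.85 to 0.12, adjusted p = 0.347). Fgf4 read 4.08 to 4.85 and was above background on 8 of 11 arrays. Primary cells averaged 4.37 ± 0.23, residual cells 4.31 ± 0.17 and recurrent cells 4.45 ± 0.33, and its adjusted p values were 0.755 or more.

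Of 9 measured neighbours of these genes 3 were called lower in residual than in primary cells, against 7.61% of all genes and 13% of those above background: Ccnd1, cyclin D1, by 3.65, Cttn, the actin-binding protein cortactin, by 0.60, and Ppfia1, a liprin scaffold, by 0.57 on the log2 scale (adjusted p = 1.96e-05, 0.0189 and 0.0226). The smallest p values in recurrent against primary cells, neither passing, were those of Mrgprf (1.11, adjusted p = 0.136) and Ppfia1 (-0.41, adjusted p = 0.162). Fgf15, Tpcn2, Mrgprf, Ano1, Fadd and Shank2 were not called in any comparison. Ccnd1 read 10.24, 9.71, 9.58 and 9.60 on recurrent arrays, against 5.81, 7.42 and 6.57 on residual arrays (log2 fold change 3.18, adjusted p = 9.56e-05), and it was the 1 neighbour called between those stages.

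Fgf7 and Fgf10, the stromal ligands of the IIIb receptor, were dim on all 11 arrays. Fgf7, keratinocyte growth factor, read 2.55 to 3.58, and primary cells averaged 3.11 ± 0.12, residual cells 3.01 ± 0.47 and recurrent cells 3.17 ± 0.35. Its adjusted p values were 0.766 or more. Fgf10, without which mammary buds fail in mice, read 2.95 to 3.50. Residual cells averaged 3.34 ± 0.17 and primary cells 3.10 ± 0.11, a difference of 0.24 (95% interval -0.03 to 0.52, adjusted p = 0.256). Of 9 adipocyte markers Lep, Cidec and Retn were above background on no array, and Adipoq and Cfd on 1 each. Fabp4 and Lpl were above it on 9 arrays each, Plin1 on 8 and Pparg on 7. In residual against primary cells 2 of the 9 were called higher, Lpl (1.27) and the dim Retn (0.70), where 4.81% of all genes were. Differences of dim genes such as Fgf10 and Retn do not remove the higher background of residual arrays.

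Across the 10 members the differences were small. In residual against primary cells they ran from -0.36 to 0.73 with a median of 0.09, while the median of all genes was 0.03. None was called, against 12.4% of all genes and 19.7% of those above background on at least 3 arrays, and limma's unadjusted p was under 0.05 for 1, Fgfr2. In recurrent against primary cells they ran from -0.74 to 0.31 (median 0.06, all genes -0.01). None was called, against 1.8% of all genes (3.08% of those above background on at least 3 arrays, 1.68% lower), and the unadjusted p was under 0.05 for 2, Fgfr1 and Fgf2. In recurrent against residual cells they ran from -1.14 to 0.25 (median 0.00, all genes -0.03), and 1 was called, against 5.78% of all genes and 9.15% of those above background. Groups did not overlap for 1 member there, against 15.5% of genes, and overlapped for all 10 members in the comparisons with primary cells, where 24.8% (residual) and 9.02% (recurrent) of genes did not overlap. Comparisons that share a stage share its arrays.

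**Figure D3:**
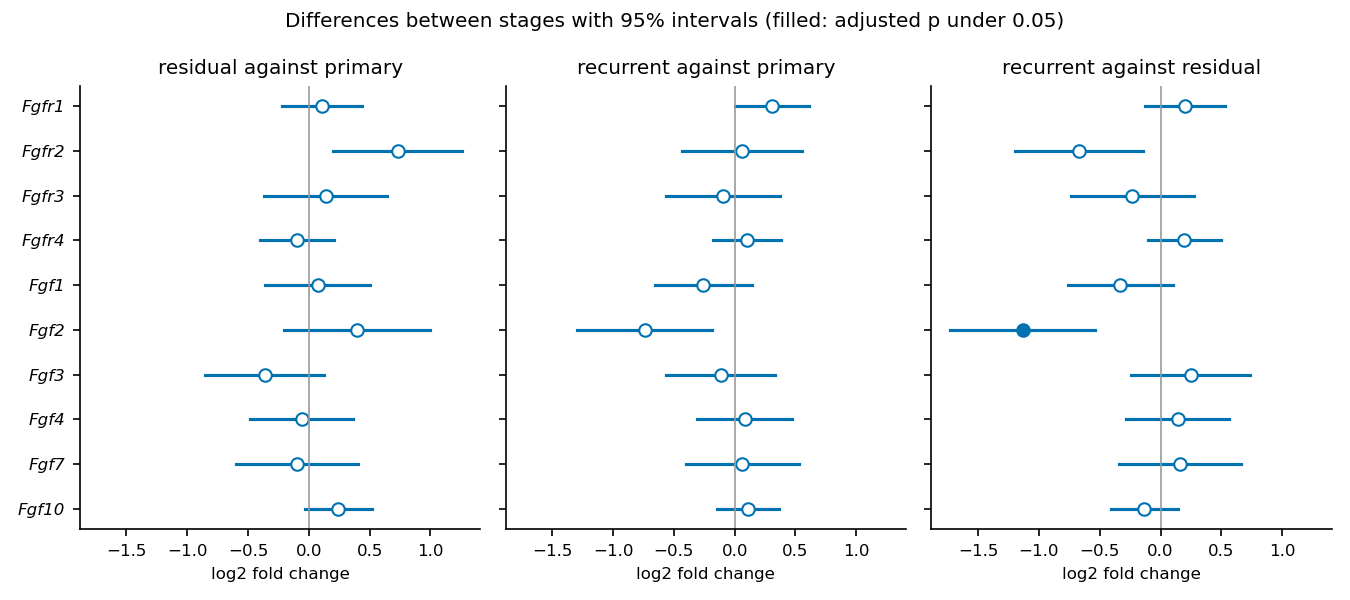
Log2 fold changes of the 10 genes (horizontal axis) in the 3 comparisons, each the first-named stage minus the second, with 95% intervals from limma. The filled point, Fgf2 in recurrent against residual cells at -1.14, is the 1 call among 30.

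Of 12 other secreted FGF genes 2 were called, both higher in residual than in primary cells, where the list's median was 0.14. Fgf18, a ligand of bone and lung development, read 4.71, 6.30 and 5.38 on residual arrays, against 3.83, 4.15, 4.35 and 4.38 on primary arrays. Its log2 fold change was 1.29 (SE 0.33, adjusted p = 0.0264). Residual 2, the array with the most epithelial markers above background, was the highest. Fgf22, a member of the FGF7 subfamily, read 5.94, 5.73 and 6.14 on residual arrays, against 5.33, 5.27, 5.45 and 5.53 on primary arrays (0.54, SE 0.16, adjusted p = 0.0423). Of all genes 4.81% were called higher in this comparison. In recurrent against primary cells none of the 12 passed in limma, and the smallest p values were those of Fgf22 (0.37, adjusted p = 0.275) and Fgf18 (0.71, adjusted p = 0.334).

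Fgf8 differed among the recurrent arrays. It read 6.80 and 5.74 on recurrent 1 and 2, and 3.73 and 2.85 on recurrent 3 and 4, against 3.45, 3.45 and 3.08 on residual arrays. Primary arrays read 3.09, 3.62, 3.10 and 3.75. Recurrent 1 and 2 were thus above background and the other two, like all residual and primary arrays, were dim. The group differences were not called (1.45 against residual cells with adjusted p = 0.305, 1.39 against primary cells with adjusted p = 0.406), and their 95% intervals were -0.14 to 3.05 and -0.09 to 2.87. Fgf20 was dim throughout, with 2.45, 2.44, 2.33 and 2.34 on recurrent and 2.75, 2.69 and 2.62 on residual arrays (adjusted p = 0.205). None of the 4 intracellular FGF homologous factors was called. The smallest p values were those of Fgf14 (0.77, adjusted p = 0.11) and Fgf11 (0.40, adjusted p = 0.298) in residual against primary cells and of Fgf14 (0.47, adjusted p = 0.492) and Fgf13 (0.18, adjusted p = 0.647) in recurrent against primary cells. In recurrent against residual cells they were again those of Fgf13 (0.16, adjusted p = 0.609) and Fgf14 (-0.30, adjusted p = 0.63).

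**Figure D4:**
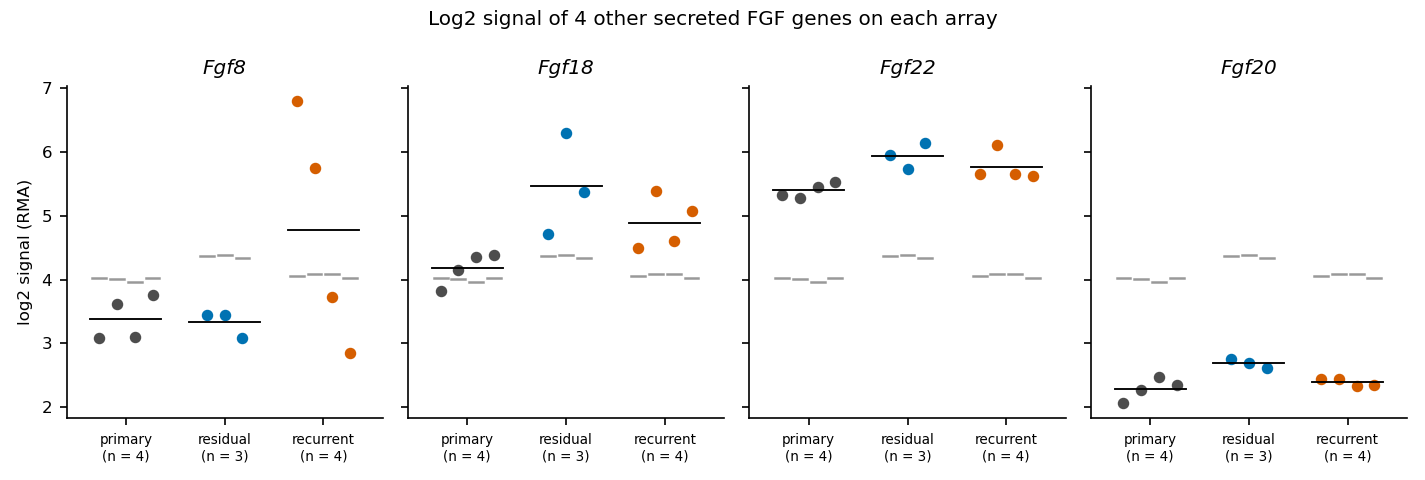
Log2 signal (vertical axis) of Fgf8, Fgf18, Fgf22 and Fgf20 on the arrays of the 3 stages. Points are arrays, black lines group means, and grey ticks the 95th percentile of olfactory receptor genes; Fgf8 reads 6.80 and 5.74 on 2 recurrent arrays and at most 3.75 on all others.

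Of 16 genes for co-receptors, carriers and decoys 3 were higher and 2 lower in residual than in primary cells (median 0.31), where 12.4% of all genes were called. Ncam1, an adhesion molecule that binds Fgfr1, read 10.26, 10.31 and 9.88 on residual arrays, against 8.58, 8.27, 9.18 and 8.97 on primary arrays (log2 fold change 1.40, SE 0.26, adjusted p = 0.00499). Flrt1, a membrane protein of the receptor-binding Flrt family, rose by 1.12 and the syndecan Sdc2 by 0.82 (adjusted p = 0.02 and 0.00123). Flrt3 fell by 1.71 and the syndecan Sdc4 by 1.48 (adjusted p = 0.0268 and 0.0184).

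In recurrent against residual cells 4 of these 16 genes were lower and none higher (median -0.22), where 2.19% of all genes were called lower. Ncam1 fell by 1.30, Sdc1, the main heparan sulphate proteoglycan of epithelia, by 1.15, the glypican Gpc1 by 0.98 and Sdc2 by 0.48 (adjusted p = 0.0147, 0.0193, 0.0268 and 0.0418). Sdc1 read 8.69, 9.31, 9.94 and 9.80 on recurrent arrays, against 10.68, 10.60 and 10.46 on residual arrays. In recurrent against primary cells none of the 16 passed in limma. The smallest p values were those of Sdc1 (-0.83, adjusted p = 0.105) and Gpc1 (-0.71, adjusted p = 0.132). Fgfrl1, the receptor-like decoy without a kinase, averaged 7.11 in residual and 6.30 in primary cells and was not called (adjusted p = 0.114).

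All 22 genes for adaptors and kinases that relay the signal from receptor to MAPK read above background on at least 3 arrays. In residual against primary cells 3 were higher, 1 was lower and 18 did not pass (median 0.05); 19.7% of all genes at such levels were called there, a share close to that of the list. The docking protein Gab1 read 7.07, 7.36 and 7.65 on residual arrays, against 5.76, 5.27, 6.05 and 5.74 on primary arrays (1.66, SE 0.21, adjusted p = 0.000477). Gab1 was also higher in recurrent than in primary cells, by 1.32 (adjusted p = 0.00608). Plcg1, the phospholipase that FGF receptors phosphorylate directly, read 8.30, 8.004 and 7.81 on residual arrays, against 6.42, 6.54, 6.29 and 6.36 on primary arrays (1.63, SE 0.18, adjusted p = 0.000159). In recurrent cells Plcg1 was lower than in residual cells, with 6.51, 6.86, 6.47 and 7.15 on the 4 arrays (-1.29, adjusted p = 0.00162). Gab2 rose by 0.96 and the kinase Map2k2 fell by 0.60 in residual against primary cells (adjusted p = 0.0184 and 0.0289). Frs2, the main docking protein of FGF receptors, averaged 7.81 in residual and 7.74 in primary cells (adjusted p = 0.863).

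Of 18 measured feedback and target genes of the FGF and MAPK pathway 10 were lower and 3 higher in residual than in primary cells (median -0.89), and 8 were higher and none lower in recurrent than in residual cells (median 0.71). Of all genes above background on at least 3 arrays, 19.7% were called in the first comparison (13% lower) and 9.15% in the second. In recurrent against primary cells 1 gene of the list was higher, and the median was 0.01. Many other receptors feed this pathway, so the list is not specific to FGF. Some epithelial markers moved with it and others did not. Of 15 luminal markers 4 were lower and 1 higher in residual than in primary cells, and 3 were higher and 1 lower in recurrent than in residual cells. Cldn4 was the 1 called the other way in both (0.72 in the first comparison and -0.71 in the second). The others were not called, among them Epcam (1.33 and -1.21) and Cdh1 (0.78 and -1.28). Krt8 fell by 1.67, Krt18 by 2.32 and Areg, an EGF receptor ligand, by 3.05 in the first comparison. In the second Krt8 rose by 1.37, Krt18 by 1.75 and Areg by 1.72. The 12 basal markers were split, with 2 called higher and 2 lower in the first comparison and 1 higher and 1 lower in the second. Among them the integrin Itga6 fell by 2.62 in the first and rose by 1.90 in the second. The keratin Krt14 went the other way (log2 fold change 2.73 in the first and -3.28 in the second). The part of these markers in the changes of the list was not tested. Without residual 3 the 13 calls of residual against primary cells became 8, and without residual 1 or residual 3 the 8 calls of recurrent against residual cells became 5.

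Etv4 and Etv5 are ETS factors that FGF signalling induces in many tissues. Etv5 read 9.90, 8.97, 8.85 and 7.49 on recurrent arrays, against 6.49, 7.10 and 4.82 on residual arrays (2.67, SE 0.55, adjusted p = 0.0162). On primary arrays Etv5 read 8.61, 8.55, 8.48 and 8.65, and residual cells were lower by 2.44 (log2 fold change -2.44, adjusted p = 0.0134). Etv4 averaged 6.28 in recurrent and 4.75 in residual cells (1.52, adjusted p = 6.69e-05). Fosl1, an AP-1 factor, averaged 9.38 in recurrent and 4.74 in residual cells (4.64, adjusted p = 3.37e-06).

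The inhibitors did not move together. In residual against primary cells Spred1, Spred2, Spred3, Dusp4 and Dusp5 were called lower (-0.685, -0.89, -1.34, -1.36 and -0.95). Spry2 and Spry4 were lower without a call (limma adjusted p = 0.0563 and 0.109), and Il17rd was called higher (1.03). Spry1, a Sprouty protein that blocks RAS activation, was higher after withdrawal: it read 8.81, 9.03 and 8.92 on residual arrays, against 5.87, 6.36, 6.47 and 6.31 on primary arrays (2.67, SE 0.22, adjusted p = 2.16e-05). On recurrent arrays Spry1 read 8.93, 8.72, 7.93 and 8.40, also above primary cells (2.24, SE 0.21, adjusted p = 0.000331). Spry2 and Spry4 were higher in recurrent than in residual cells, by 1.47 and 1.26, and the phosphatase Dusp4 by 1.32 (adjusted p = 0.0101, 0.0185 and 0.0187). Dusp6, the ERK phosphatase often used as a readout of FGF signalling, read 10.41 to 10.91 on all arrays. Its difference was 0.24 between residual and primary cells (95% interval -0.05 to 0.54, adjusted p = 0.295) and -0.10 between recurrent and residual cells (interval -0.40 to 0.19, adjusted p = 0.741).

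**Figure D5:**
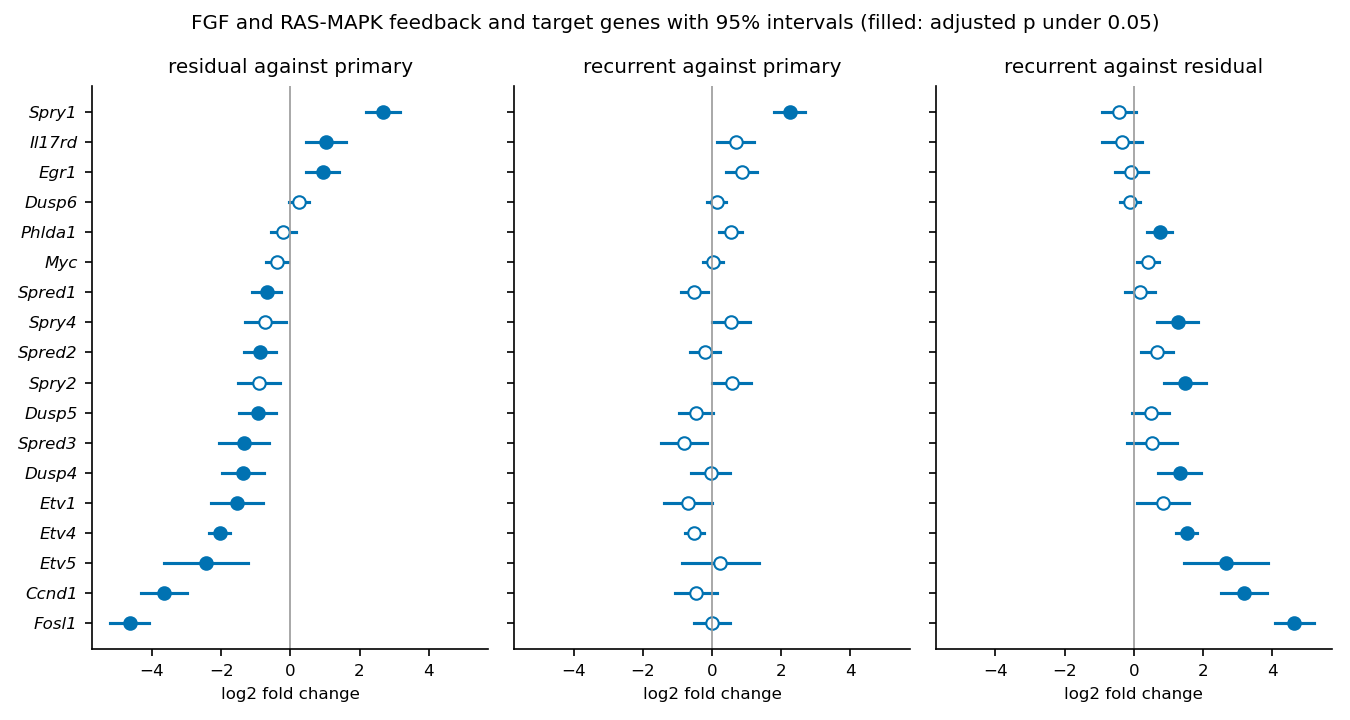
Log2 fold changes of 18 feedback and target genes (horizontal axis) in the 3 comparisons, each the first-named stage minus the second, with 95% intervals from limma; filled points passed at an adjusted p under 0.05. Fosl1, Ccnd1, Etv5 and Etv4 are filled on the left side in residual against primary cells and on the right side in recurrent against residual cells, and Spry1 is filled in both comparisons with primary cells.

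Of 10 measured regulators of the receptors' exon choice 3 were lower in residual than in primary cells, where 7.61% of all genes and 13% of those above background were called lower: Hnrnpf by 0.56, Hnrnpm by 0.53 and Ptbp1 by 0.45 on the log2 scale (adjusted p = 0.0127, 0.01 and 0.0251), all RNA-binding proteins that repress or shape exon use. Hnrnpm was higher in recurrent than in residual cells by 0.46 (adjusted p = 0.0371). None of the 10 passed in recurrent against primary cells in limma, and Celf1 (-0.36, adjusted p = 0.235) and Hnrnpf (-0.16, adjusted p = 0.606) had the smallest p values. The epithelial regulators Esrp1 and Esrp2 were not called. Esrp2 read 4.22, 5.23 and 4.23 on residual arrays, against 3.62, 3.75, 4.10 and 4.32 on primary arrays, with residual 2 the highest (adjusted p = 0.151).

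Genes whose log2 levels followed a member most closely over the 11 arrays were taken from 12648 genes, those above background on at least 3 arrays without predicted genes, clone names and olfactory or vomeronasal receptors. For Fgfr1 they were Notch2, a Notch receptor, Nr4a3, an orphan nuclear receptor, and Dusp1, a MAPK phosphatase (Pearson's r = 0.95, 0.92 and 0.92). With group means removed these were 0.95, 0.86 and 0.95. For Fgf2 they were Arhgef5, Ppp1r9b and Tmem139 (r = 0.93, 0.92 and 0.91, and 0.85, 0.79 and 0.74 with group means removed). Among members near background, the genes were Capn15, Rfxank and Xrcc3 for Fgfr3 (r = 0.95, 0.89 and 0.83) and Cbx2, Dynll1 and Sox1ot for Fgf1 (0.97, 0.90 and 0.88). They were Got1, Ptgdr2 and Wdfy2 for Fgf3 (0.92, 0.90 and 0.89) and Mrps14, Sipa1 and Tnni3 for Fgf4 (0.86, 0.85 and 0.81). The arrays share their groups and their normalization, the highest of many r is large by selection, and these values are a description only.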

How the data were processed

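RNA of 11 samples was measured on Affymetrix arrays from biotin-labelled cRNA. The authors deposited 1 table of log2 signals, 24479 probe sets by 11 samples, for which the submitters' processing notes name RMA and R 3.0.2; the sources used here do not name the probe annotation. RMA compresses dim signals, so fold changes near background can be understated. Differences of dim genes also hold the higher background of residual arrays, which was not removed. The values, 1.10 to 13.3, were used as deposited. Names came from the platform table (23281) or, by Entrez identifier, the RefSeq table (556), and 642 probe sets stayed unnamed. Of 2 probe sets with one symbol the brighter was kept.

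A 3-group linear model was fitted to all 11 arrays with limma 3.58.1 in R 4.3.3 (8 residual and 3.46 prior degrees of freedom). P-values are two-sided, moderated and Benjamini-Hochberg adjusted over 23835 genes, with calls at an adjusted p under 0.05. The fit was tested on simulated data. Members, lists and markers were chosen with earlier results of these data known. Of 92 fixed pathway genes 89 were measured. Genes named were all members and neighbours of Fgf3, per list and comparison up to 4 called genes by size (otherwise 2 by p), and the 3 genes most like a member above background on at least 3 arrays. Named outside the rule, after their values were seen, were Nudt6, Fgf2os, Fgfrl1, Frs2, Dusp6, Spry2, Spry4, Dusp4, Dusp5, Spred1, Spred2, Spred3, Il17rd, Esrp1, Esrp2, Flrt2 and single cell type markers. Samples with the same replicate number did not deviate together (r from -0.11 to 0.02), so the number was not used as pairing. Alternatives were another set of groups, a replicate block, 3 scalings, a filter on dim genes, 3 estimates of the spread, all probe sets, and leaving out each array. Array weights needed statmod 1.5.0, and Python 3.11.15 with matplotlib 3.10.9 drew the figures.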

Additional observations from a re-analysis of the deposited data

Results flagged for a closer look

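In the groups of 4 arrays, 20 member and group combinations were tested for 1 array far from the rest (Dixon's ratio of gap to range). Of these, 3 exceeded the ratio's 95% critical value. For values without ties chance alone gives about 1 in 20. Each of the 3 groups held arrays with the same deposited value, so that rate does not apply to them and no excess over chance can be read from the count. Fgf1 read 4.49 on primary 2, with a ratio of 0.935, and 3.45 on recurrent 4, with a ratio of 0.972; in both groups the other arrays differed by hundredths of a log2 unit or not at all. Fgf3 read 3.99 on primary 2, below the other primary arrays, with a ratio of 0.95. All 3 values lie near the background range.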

How the results depend on the processing

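Of 618 differences of single members recomputed with limma, 586 kept their direction and side of the threshold, 3 gained and 9 lost a call, and 20 turned sign; the exact permutation test cannot pass the threshold at 4 against 3 arrays. The numbers of called members were 1 for recurrent against residual cells and 0 for the other comparisons. For recurrent against residual cells it became 0 with array weights, with only the arrays compared, with ordinary least squares and with the replicate block, and 0 to 1 without one array (without residual 1 it was Fgfr2). For residual against primary cells it became 1 with the replicate block (Fgfr2, 0.80, adjusted p = 0.0494) and 0 to 1 without one array. Samples of one number did not pair, so the replicate block is no stricter test; with it 277 of all genes were called in recurrent against primary cells (430 without) and 872 in recurrent against residual cells (1377 without). With ordinary least squares these became 170 and 906, and with only the arrays compared the second became 609. Without one array the counts were 203 to 420, 936 to 1325 and, in residual against primary cells, 2228 to 3073 (2960 with all). Centring arrays made 26.7% of the calls of residual against primary cells higher, against 38.7%. Of the 14 pathway calls of recurrent against residual cells 5 were counted with only the arrays compared, 9 with ordinary least squares and 7 to 14 without one array. Of the 29 in residual against primary cells the counts were 19 with least squares and 16 to 32 without one array. Feedback genes, an alternative chosen after seeing the data, gave, without one array, 8 to 15 calls in residual against primary cells, 5 to 8 in recurrent against residual cells and 1 throughout in recurrent against primary cells.

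The 20 that turned sign were never called. In residual against primary cells Fgf1 became -0.0193 on centring, -0.0233 with one interquartile range, -0.011 on quantile normalization and -0.0245 with the replicate block. In recurrent against primary cells, with one interquartile range, Fgf7 became -0.0081 and Fgfr2 -0.0061. The rest turned on leaving out one array. In residual against primary cells the range was then -0.0852 to 0.1662 for Fgf1, -0.1593 to 0.0309 for Fgf4, -0.34 to 0.1307 for Fgf7, -0.0064 to 0.2042 for Fgfr1 and -0.0897 to 0.317 for Fgfr3. In recurrent against primary cells it was -0.0529 to 0.204 for Fgf4, -0.0717 to 0.1663 for Fgf7, -0.085 to 0.1655 for Fgfr2 and -0.2201 to 0.0479 for Fgfr3. In recurrent against residual cells it was -0.0087 to 0.4038 for Fgf3 and -0.0676 to 0.4032 for Fgf7. The cause was not tested. For the 4 members below background on every array, signal over background limits what could be seen.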

Other observations

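Flrt2, a membrane protein of the receptor-binding Flrt family, read 8.78 on recurrent 3, and 2.52 to 4.29 on the other 10 arrays. On the same array Cdh5, the endothelial VE-cadherin, read 10.13, against 4.13 to 5.72 elsewhere, while the endothelial genes Kdr, Tek, Tie1, Emcn, Vwf and Cldn5 were above background on no array. Both genes were chosen after their values were seen, and recurrent 3 held neither the highest nor the lowest value of Fgfr2, Fgfr3, Fgf2, Fgf7 or Fgf10 over all arrays.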
